A study of Mus musculus with 4 samples.

Results

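The proteasome genes are the genes of the cell's main machine for breaking down proteins. They were taken as every protein-coding gene whose mouse symbol begins with Psm, then a letter from a to g and a number, among the gene IDs of the count files. The rule found 51 genes among the 56748 gene IDs listed. Of these genes, 49 encode subunits, assembly chaperones, activators or an inhibitor of the proteasome, and 2, *Psmc3ip* and *Psme3ip1*, carry a similar symbol because they are named for a partner of a subunit. Both were kept because the rule names them, and both are given apart.

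The proteasome is built from a barrel and a cap. The barrel, the 20S core, stacks rings of alpha subunits, which form the gate, on rings of beta subunits, 3 kinds of which cut proteins. The cap, the 19S regulatory particle, has a base with a ring of 6 ATPases, which unfold the substrate, and a lid, which removes the ubiquitin chain that marked it. Dedicated chaperones help to build the core and the base, and other activators can open the core in place of the cap. Every growing cell needs the particle, and muscle also uses it to take down its contractile proteins.

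The cells were C2C12, an established mouse myoblast line, with the genotype given as WT in all samples and kept in growth medium. The scrambled group (2 libraries) carried a scrambled shRNA, and the knockdown group (2 libraries) carried a mixture of 3 shRNAs against *Hnrnpl*, which encodes an RNA-binding regulator of splicing. Both plasmids also carried an eGFP reporter, and both groups were selected with puromycin. The libraries of a group are different passages of 1 selected stable line, so the shRNA and other differences between these 2 lines cannot be told apart, and p-values measure the spread between passages. By the batch in the labels, scrambled 1 and knockdown 1 form batch 1, and scrambled 2 and knockdown 2 form batch 2. The comparison asks how the level of each proteasome transcript differs when *Hnrnpl* is lowered.

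The RNA was read directly on nanopore flow cells, so that 1 read is 1 RNA molecule read from its 3′ end. Each library had 1229424 to 1676911 counted reads, and 3 reads, the limit that a count of 0 allows, were 1.79 to 2.44 CPM, which is the read count scaled to a common library total. *Hnrnpl* itself had 358 and 656 reads in the scrambled libraries and 242 and 258 after knockdown, and its log2 fold change, knockdown over scrambled, was -0.78 (standard error, SE, 0.18, adjusted p = 0.0112, edgeR). This call was lost under the parametric fits of DESeq2, where the value stayed at -0.78. It was also lost without scrambled 2, at -0.48, and without knockdown 1, at -0.62. By qPCR on further replicates, the study reported significantly lower *Hnrnpl* in the knockdown myoblasts. Of the myoblast markers, *Des* had between 242 and 571 reads and *Myf5* between 113 and 190 in every library, *Myod1* had 1 read in all and *Myog* and *Pax7* had 0. *Des*, *Cdh15* and *Ncam1* fell in knockdown, with log2 fold changes of -0.56, -2.55 and -1.47, and *Des* lost its call with the replicate number as a block (adjusted p = 0.0526, edgeR). *Myf5* was at -0.16 and *Vcam1* at 0.29, neither called. Of the 6 fibroblast markers, *Col1a2* fell, from 409 and 345 reads to 154 and 105 (log2 fold change -1.37, adjusted p = 0.000182, edgeR), *Col3a1* was at -0.42 without passing, and *Col1a1* and *Thy1* had 0 reads. Summed over the list, fibroblast markers made 641 to 860 CPM in scrambled and 372 to 590 CPM in knockdown. Markers of leukocytes summed to between 2 and 4 reads per library and those of endothelial cells to at most 1. The part of these marker differences in the values of the proteasome genes was not tested.

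Most proteasome transcripts lay close to the scrambled level in the knockdown. Of the 51 genes, 44 had enough reads to be tested. They were tested in edgeR by its quasi-likelihood method, with p-values adjusted after Benjamini and Hochberg over all 8670 genes tested, and a gene was called at an adjusted p under 0.05. None of the 44 rose and 2 fell, the cap ATPase gene *Psmc6* and the lid gene *Psmd6*, which is 4.55% of those tested. Over all genes tested, 516 were called, or 5.95%, of which 218 (2.51%) were higher and 298 (3.44%) were lower, so the share of proteasome genes called was near the background. The 2 genes also met the thresholds that the study used (adjusted p under 0.05, absolute log2 fold change over 0.5, mean normalized count over 10), which 5.55% of all genes did in this fit. At an unadjusted p under 0.05 there were 5 proteasome genes (11.4%), *Psmb2*, *Psmc2* and *Psmd2* being the others, against 21.8% of all genes.

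The median log2 fold change of the 44 genes was -0.03, beside -0.00 for all genes tested, with 24 genes below 0 and 20 above, where 50.1% of all genes tested lay below 0. The log2 fold change of 42 of the 44 lay within 0.5 of 0, and their standard deviation was 0.26. Neither value was computed over all genes tested, so they are not set against a background. For 26 of the 44 genes (59.1%) the 95% interval of the fold change lay wholly within 1.5-fold in either direction, as it did for 24.5% of all genes tested. The width of such an interval follows the number of reads, so these shares also reflect depth. The reads on all 51 genes together made 10922 and 10844 CPM for scrambled 1 and 2, and 10490 and 11274 CPM for knockdown 1 and 2, with overlap of the groups.

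**Figure D1:**
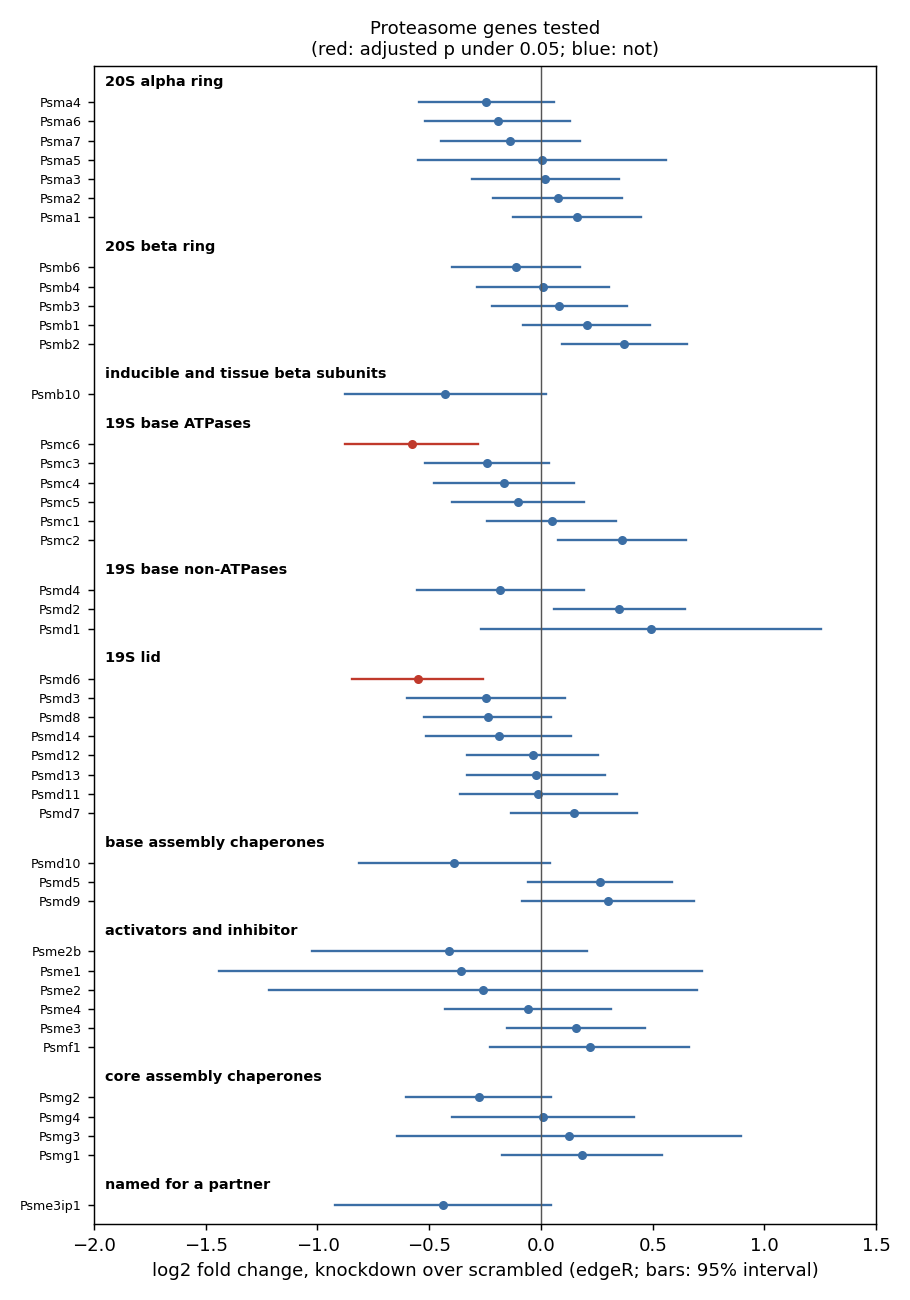
Log2 fold change of each of the 44 proteasome genes tested, knockdown over scrambled, as fitted by edgeR, grouped by role; points are estimates, bars their 95% intervals, and red marks an adjusted p under 0.05. *Psmc6* and *Psmd6* are the red points, and of the blue intervals those of *Psmb2*, *Psmc2* and *Psmd2* lie wholly above 0 while the others cross it.

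The genes that fell are first shown by the DNA in front of them, beside that of *Psmb2*, which lay highest among the well-read genes. All 3 windows are on the forward strand of GRCm39, and those of *Psmc6* and *Psmb2* end 1 base before the start of the canonical transcript. They are chr14:45566965-45567214 for *Psmc6*, chr14:8348529-8348761 for *Psmd6* and chr4:126571173-126571422 for *Psmb2*. Bases are in lower case, and capitals mark matches to the 3 motifs described beneath them. For *Psmd6*, the 17 bases nearest to that start are not shown, because an exon of another transcript is annotated there.
Psmc6: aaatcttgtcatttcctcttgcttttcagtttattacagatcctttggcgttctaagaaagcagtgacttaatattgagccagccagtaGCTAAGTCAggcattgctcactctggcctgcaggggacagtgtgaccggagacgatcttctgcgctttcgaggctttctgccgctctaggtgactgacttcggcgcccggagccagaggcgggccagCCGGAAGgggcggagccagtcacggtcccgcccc
Psmd6: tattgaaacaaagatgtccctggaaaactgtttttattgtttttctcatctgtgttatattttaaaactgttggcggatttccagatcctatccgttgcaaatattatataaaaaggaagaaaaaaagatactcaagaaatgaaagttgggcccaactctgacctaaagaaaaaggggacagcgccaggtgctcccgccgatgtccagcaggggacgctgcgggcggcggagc
Psmb2: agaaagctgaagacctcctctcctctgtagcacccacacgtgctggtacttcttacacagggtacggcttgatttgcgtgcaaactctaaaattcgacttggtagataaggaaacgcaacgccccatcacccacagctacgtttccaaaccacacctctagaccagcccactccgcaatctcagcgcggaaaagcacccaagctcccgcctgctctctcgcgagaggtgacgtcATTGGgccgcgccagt

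The motifs were searched on both strands in the 250 bases before the start of each gene. The first, TGACNNNGC, is the core of the antioxidant response element, which factors such as Nfe2l1 and Nfe2l2 bind and through which proteasome genes are known to be raised when the particle is inhibited. It was present before 7 of the 51 proteasome genes (13.7%) and before 9.67% of all protein-coding genes. With only the tested genes of each kind, the shares were 13.6% and 10.6%. The *Psmc6* window holds this core once, on the reverse strand, beginning 161 bases before the start. The second, CCAAT, was present before 37.3% of proteasome genes and 36.5% of all protein-coding genes, and the *Psmb2* window holds it on the reverse strand, 16 bases before the start. The third, CCGGAAG, a core of ETS factor sites, was present before 17.6% against 6.87% of all protein-coding genes. Among genes with enough reads to be tested these shares were 15.9% and 11.1%. It lies 34 bases before the start of *Psmc6*. The 250 bases before *Psmd6*, the 17 not shown included, hold none of the 3, so the 2 genes that fell share no motif of this search. A match is a description of the letters and not a measured site.

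*Psmc6* (ENSMUSG00000021832.9, chr14:45567215-45587169, forward strand) encodes a subunit of the ATPase ring. Scrambled 1 and 2 gave 669 and 727 reads, and knockdown 1 and 2 gave 409 and 403. Both knockdown libraries lay below both scrambled libraries. After TMM scaling to the mean of the library sizes, the mean normalized count dropped by 33.0%, from 656 ± 62.8 to 439 ± 44.9 (SD, n = 2 each). Its fitted log2 fold change was -0.58 (SE 0.14, 95% interval -0.88 to -0.28, adjusted p = 0.0200, edgeR). Within batch 1 the log2 ratio was -0.78 and within batch 2 it was -0.38. Without scrambled 1 the log2 fold change stayed at -0.48 but the call was lost (adjusted p = 0.143, edgeR), and without knockdown 1 they were -0.48 and 0.160.

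*Psmd6* (ENSMUSG00000021737.5, chr14:8348762-8357589, forward strand) encodes a subunit of the lid. It had 555 and 651 reads under the scrambled shRNA and 357 and 355 under the knockdown, again with no overlap between the groups. The mean normalized count dropped by 31.7%, from 564 ± 23.6 to 385 ± 41.9 (SD, n = 2 each). The log2 fold change was -0.55 (SE 0.14, 95% interval -0.85 to -0.26, adjusted p = 0.0246, edgeR), with -0.71 within batch 1 and -0.40 within batch 2. Without scrambled 1, scrambled 2 or knockdown 1 it lay at -0.51, -0.60 and -0.44 and the call was lost (adjusted p = 0.110, 0.0503 and 0.188, edgeR).

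Under the parametric fits of DESeq2 neither gene was called. *Psmc6* was at -0.59 (adjusted p = 0.0961, Wald test, and 0.110, likelihood ratio test). *Psmd6* was at -0.56 (adjusted p = 0.149, Wald test, and 0.170, likelihood ratio test). Both genes lie on chromosome 14, where most genes were lower in the knockdown. The median log2 fold change of the 278 other genes tested there was -0.36, and 244 of them (87.8%) lay below 0. Of these 278 genes, 28.8% lay lower than *Psmc6* and 33.5% lower than *Psmd6*. The 20 nearest tested genes of *Psmc6*, 10 on each side, had a median of -0.40, with 17 below 0 and 6 lower than *Psmc6*. The 17 nearest tested genes of *Psmd6*, 7 before it and 10 after it, had a median of -0.53, with 15 below 0 and 8 lower than *Psmd6*. When the median of each chromosome was taken from its genes before the fit, the log2 fold change was -0.22 for *Psmc6* (adjusted p = 0.535, edgeR) and -0.19 for *Psmd6* (adjusted p = 0.606, edgeR). No proteasome gene was then called by edgeR, against 3.46% of all genes, and the lowest adjusted p was 0.0765, that of *Psmb2*.

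**Figure D2:**
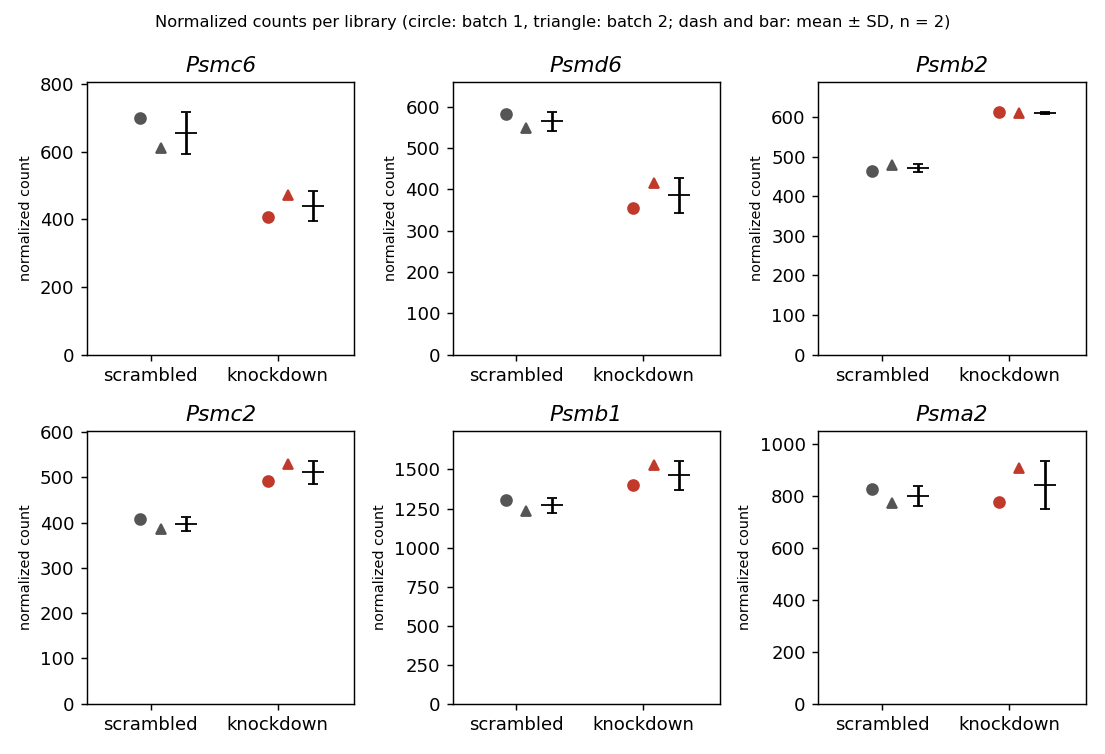
Normalized counts of 6 proteasome genes in each library; circles are batch 1, triangles batch 2, and the dash with its bar is the mean ± SD of the 2 libraries of a group. The scrambled and knockdown points of *Psmc6*, *Psmd6*, *Psmb2*, *Psmc2* and *Psmb1* do not overlap, whereas those of *Psma2* do.

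Proteasome genes elsewhere also tended to lie near the median of their chromosome. Over the 44 genes, the log2 fold change had a Pearson correlation of 0.68 (Spearman 0.64) with the median of the other genes on the same chromosome, and 34 of 44 had the sign of that median. A chromosome median has the sign of most of its genes by construction, and the share over all genes was not computed. Without the 4 genes on chromosome 14 the correlation was 0.57 (n = 40). These are correlations across genes of the same 4 libraries, and genes of a chromosome share their x value. Taking the chromosome median from each gene lowered the standard deviation from 0.26 to 0.19. The other proteasome genes tested on chromosome 14, *Psme1* and *Psme2*, had log2 fold changes of -0.36 and -0.26, neither called. On chromosome 11, which holds 9 of the tested genes, they ran from -0.41 to 0.16 around a chromosome median of -0.11. On chromosome 16, with a median of 0.30, *Psmd2* lay at 0.35 and *Psmg1* at 0.18. No cause of the differences between chromosomes was tested.

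**Figure D3:**
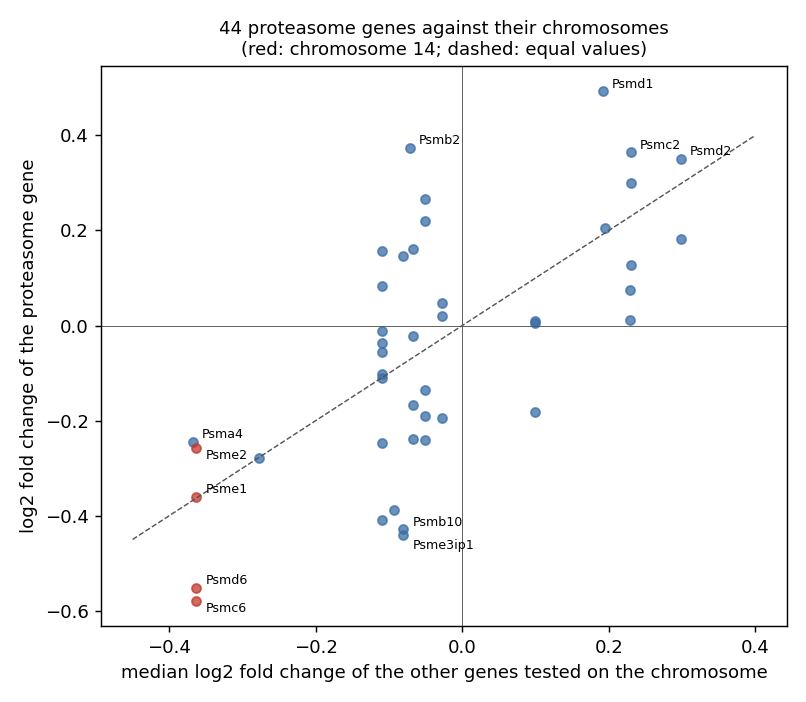
Log2 fold change of each of 44 proteasome genes against the median log2 fold change of the other genes tested on its chromosome, knockdown over scrambled; red points are on chromosome 14 and the dashed line marks equal values. The points follow the line loosely (r = 0.68), with *Psmc6* and *Psmd6* at the lower left and *Psmb2* above the median of its chromosome.

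In the alpha ring, no gene was called among the 7 tested, and none had an unadjusted p under 0.05 in edgeR. Their median log2 fold change was 0.01. *Psma4*, whose product is part of the gate, had 286 and 336 reads in the scrambled libraries and 252 and 205 after knockdown. Its normalized counts, 291 ± 11.9 and 245 ± 8.11 (SD, n = 2 each), did not overlap, and the log2 fold change of -0.24 (SE 0.14, adjusted p = 0.342, edgeR) was the lowest of the ring. It lies on chromosome 9, whose median was -0.37. *Psma1*, the highest, went from 442 and 568 reads to 500 and 475, a log2 fold change of 0.16 (SE 0.14, adjusted p = 0.529, edgeR). *Psma2*, the gene of the ring with the most reads, had normalized counts of 827 and 771 under the scrambled shRNA, and of 776 and 908 after knockdown. The lower knockdown value of *Psma2* lies between the scrambled ones, and the log2 fold change was 0.07 (SE 0.14, 95% interval -0.21 to 0.36, adjusted p = 0.802, edgeR). *Psma3* was at 0.02, *Psma5* at 0.01, *Psma6* at -0.19 and *Psma7* at -0.14.

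In the beta ring the 5 genes tested had a median of 0.08, and again none was called. *Psmb2*, a subunit without a cutting site, had 444 and 570 reads under the scrambled shRNA and 616 and 522 under the knockdown. Its normalized count was 472 ± 10.4 in scrambled and 612 ± 2.57 in knockdown (SD, n = 2 each), 29.6% higher, with close values within each group. The log2 fold change was 0.37 (SE 0.13, 95% interval 0.09 to 0.65, adjusted p = 0.105, edgeR). *Psmb2* lay above the median of chromosome 4, which was -0.07, and the share of that chromosome's genes lying higher was not computed. With chromosome medians removed its log2 fold change was 0.44, with an adjusted p of 0.0765 (edgeR). *Psmb1*, the most counted of all proteasome genes with 1247 and 1468 reads in the scrambled libraries and 1403 and 1309 after knockdown, had a log2 fold change of 0.20 (SE 0.14, adjusted p = 0.404, edgeR). *Psmb6*, which carries the caspase-like cutting site, was the lowest at -0.11 (SE 0.14, 95% interval -0.40 to 0.18, adjusted p = 0.692, edgeR), with 760 and 872 reads under the scrambled shRNA and 665 and 645 under the knockdown. *Psmb4* was nearest to 0 at 0.01 (SE 0.14, adjusted p = 0.983, edgeR), with 868 and 1037 reads against 805 and 848, and *Psmb3* was at 0.08.

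The inducible subunits replace the cutting subunits after interferon, and *Psmb11* is a form of the thymus. *Psmb8* and *Psmb11* had 0 reads in every library, and *Psmb9* had 0, 1, 1 and 0. *Psma8*, the alpha subunit of the testis, also had 0 reads. *Psmb10*, the inducible counterpart of *Psmb7*, was counted, with 69 and 78 reads in the scrambled libraries and 54 and 41 after knockdown. Its 2 knockdown libraries lay below both scrambled ones, at a log2 fold change of -0.43 (SE 0.21, adjusted p = 0.254, edgeR), which did not pass.

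Of the 6 ATPases of the base, *Psmc6* fell and the others did not pass the test. The median of the 6 was -0.13. *Psmc2* was at the other end. It had 390 and 458 reads under the scrambled shRNA and 494 and 453 under the knockdown, or normalized counts of 397 ± 16.3 and 511 ± 26.4 (SD, n = 2 each), 28.7% higher with no overlap. The log2 fold change was 0.36 (SE 0.14, adjusted p = 0.122, edgeR). *Psmc2* lies on chromosome 5, whose median was 0.23, and with the chromosome medians removed it was at 0.13. *Psmc3* had 561 and 698 reads against 493 and 430, with no overlap after scaling and a log2 fold change of -0.24 (adjusted p = 0.305, edgeR). *Psmc4*, *Psmc5* and *Psmc1* were at -0.17, -0.10 and 0.05. The fitted values of the 6 spanned -0.58 to 0.36, and -0.22 to 0.13 with chromosome medians removed.

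The scaffold subunits of the base are *Psmd1* and *Psmd2*, which hold ubiquitin-binding proteins, and *Psmd4* is a ubiquitin receptor. *Psmd2* had 284 and 391 reads in the scrambled libraries and 404 and 340 after knockdown, a log2 fold change of 0.35 (SE 0.14, adjusted p = 0.146, edgeR), and the median of its chromosome was 0.30. *Psmd1* had the largest fitted value of all, 0.49, from 14 and 17 reads under the scrambled shRNA and 22 and 16 under the knockdown. Its SE of 0.36 and 95% interval of -0.27 to 1.26 follow from so few reads (adjusted p = 0.465, edgeR). *Psmd4* had normalized counts of 209 and 327 after knockdown, which enclosed the scrambled values of 280 and 325, and the log2 fold change was -0.18 (SE 0.18, adjusted p = 0.599, edgeR).

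The lid had 8 genes tested, 7 of them below 0, with a median of -0.11, and *Psmd6* was the gene called. Of all genes tested, 50.1% lay below 0. *Psmd7*, which pairs with the ubiquitin-removing subunit, was alone above 0 in this fit. It had 437 and 553 reads in the scrambled libraries and 504 and 445 after knockdown, a log2 fold change of 0.15 (SE 0.13, adjusted p = 0.564, edgeR). *Psmd14*, the ubiquitin-removing enzyme itself, was at -0.19, with overlapping normalized counts, 459 and 364 in the scrambled libraries against 323 and 399. *Psmd3* was at -0.25 and *Psmd8* at -0.24, and *Psmd11*, *Psmd12* and *Psmd13* lay between -0.04 and -0.01. With chromosome medians removed, *Psmd11*, *Psmd12* and *Psmd13* lay above 0, at 0.098, 0.072 and 0.046, and the median of the lid was -0.046. Normalized counts summed over the lid were 3319 ± 79.4 in scrambled and 2965 ± 291 in knockdown (SD, n = 2 each).

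Of the chaperones that assemble the base, *Psmd9* and *Psmd5* were above 0 and *Psmd10* (gankyrin) below it. *Psmd9* had 82 and 87 reads under the scrambled shRNA and 95 and 86 under the knockdown, a log2 fold change of 0.30 (SE 0.18, adjusted p = 0.357, edgeR). *Psmd10* had 67 and 95 against 57 and 50, a log2 fold change of -0.39 (SE 0.20, adjusted p = 0.283, edgeR). Neither gene's groups overlapped after scaling, and neither passed.

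The chaperones of the core work in pairs, *Psmg1* with *Psmg2* and *Psmg3* with *Psmg4*. *Psmg1* was the highest at 0.18 (SE 0.17, adjusted p = 0.575, edgeR), with 117 and 130 reads in the scrambled libraries and 144 and 101 after knockdown. Its partner *Psmg2* was the lowest at -0.28 (SE 0.16, adjusted p = 0.312, edgeR), with 187 and 229 reads against 153 and 144. *Psmg2* lies on chromosome 18 and equalled that chromosome's median of -0.28. *Psmg3* and *Psmg4* were at 0.13 and 0.01.

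The activators *Psme1* and *Psme2*, which form a ring that opens the core, had only 42 and 43 reads over the 4 libraries. The nuclear activator *Psme3* had 238 and 309 reads under the scrambled shRNA and 306 and 224 under the knockdown and was at 0.16, and *Psme4*, the other large activator, was at -0.06. *Psme2b*, a copy of *Psme2*, had 49 and 39 reads against 34 and 24, a log2 fold change of -0.41 (SE 0.29, adjusted p = 0.446, edgeR). Without scrambled 1 this value was -0.077, and without scrambled 2 it was -0.73. *Psme2* and *Psme2b* have like sequences, and their transcript ends mapped to the genome with qualities of 60 and 55 in the check given with the mapping quality. *Psmf1*, an inhibitor of the core in the test tube, had 62 and 63 reads against 72 and 55, a log2 fold change of 0.22 (SE 0.21, adjusted p = 0.589, edgeR). Of the genes named for a partner, *Psme3ip1* had 59 and 66 reads in the scrambled libraries and 42 and 38 after knockdown and a log2 fold change of -0.44 (adjusted p = 0.281, edgeR), and *Psmc3ip*, a recombination factor of meiosis, had 8 reads in all.

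In 19 of the 44 genes the libraries of the groups did not overlap. These were 9 with both knockdown libraries lower (20.5%) and 10 with both higher (22.7%), beside 26.0% and 26.4% of all genes tested, which are shares somewhat under the background. The lower ones were *Psma4*, *Psmb10*, *Psmc3*, *Psmc6*, *Psmd6*, *Psmd8*, *Psmd10*, *Psmg2* and *Psme3ip1*. The higher ones were *Psma1*, *Psmb1*, *Psmb2*, *Psmc2*, *Psmd1*, *Psmd2*, *Psmd5*, *Psmd7*, *Psmd9* and *Psme3*. The batches gave different medians. The median log2 ratio of knockdown to scrambled was -0.17 within batch 1 and 0.05 within batch 2, and 24 of 44 genes (54.5%) had the same sign in both, against 65.0% of all genes tested. *Psma6*, for one, was at -0.53 in batch 1 and 0.11 in batch 2.

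**Figure D4:**
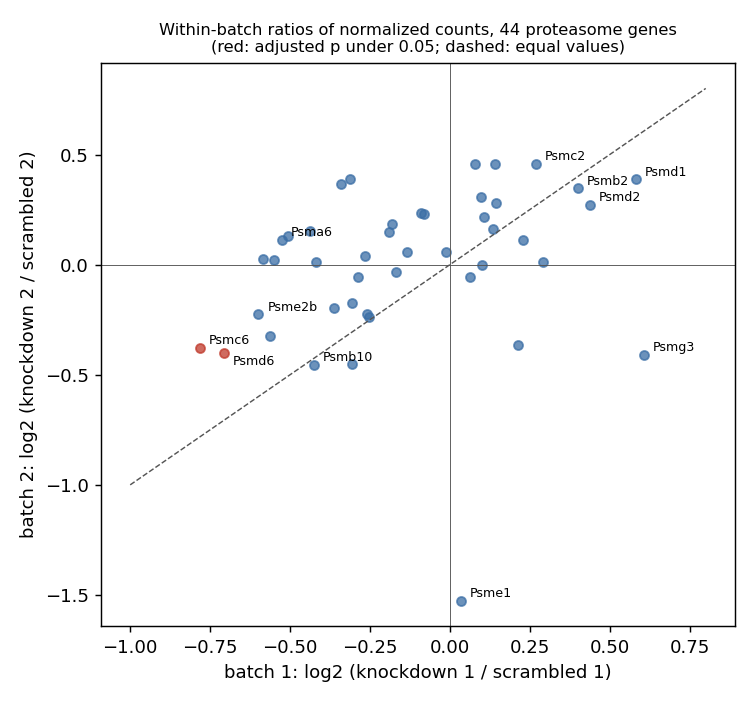
Log2 ratio of normalized counts, knockdown over scrambled, in batch 1 (x axis) and batch 2 (y axis) for the 44 proteasome genes tested; red marks an adjusted p under 0.05 and the dashed line equal values. More points lie left of 0 than below 0, and *Psmc6* and *Psmd6* lie below 0 in both batches.

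Although the core and the cap hold their subunits in fixed numbers, the read counts of their genes did not lie at one level. Levels are given as the mean CPM of the 4 libraries per kilobase of the canonical transcript, and also as the mean CPM itself, since 1 direct RNA read is 1 molecule whatever its length. The order of the well-read genes depends on which is used. In the alpha ring, 6 of the 7 general subunits lay between 82.0 and 552 CPM per kilobase, from *Psma4* to *Psma7*, and *Psma5* lay at 21.0 with 165 reads in all. In CPM the same 6 ran from 189 (*Psma4*) to 579 (*Psma2*), and *Psma5* was at 29.4. In the beta ring, 5 lay between 95.3 and 532 CPM per kilobase, from *Psmb2* to *Psmb4*. In CPM they ran from 383 (*Psmb2*) to 965 (*Psmb1*), whose transcript of 6002 bases puts it at 161 per kilobase. The other two were the cutting subunits *Psmb5*, which had 7 and 11 reads under the scrambled shRNA and 12 and 4 under the knockdown, and *Psmb7*, which had 5, 4, 6 and 4. They lay at 3.47 and 2.93 CPM per kilobase, or 5.90 and 3.40 CPM, so that of the 3 cutting subunits *Psmb6* was well counted and *Psmb5* and *Psmb7* were too few to test. In the base and lid, 16 of 17 genes lay between 41.5 and 329 CPM per kilobase (119 to 510 CPM), and *Psmd1* lay at 3.67 (12.3 CPM). *Psma5*, *Psmb5*, *Psmb7* and *Psmd1* were low for their ring or cap on both scales. Each of these genes was low in all 4 libraries, scrambled and knockdown alike, and by these counts alone a low level of RNA and reads that were not counted on the gene cannot be told apart.

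**Figure D5:**
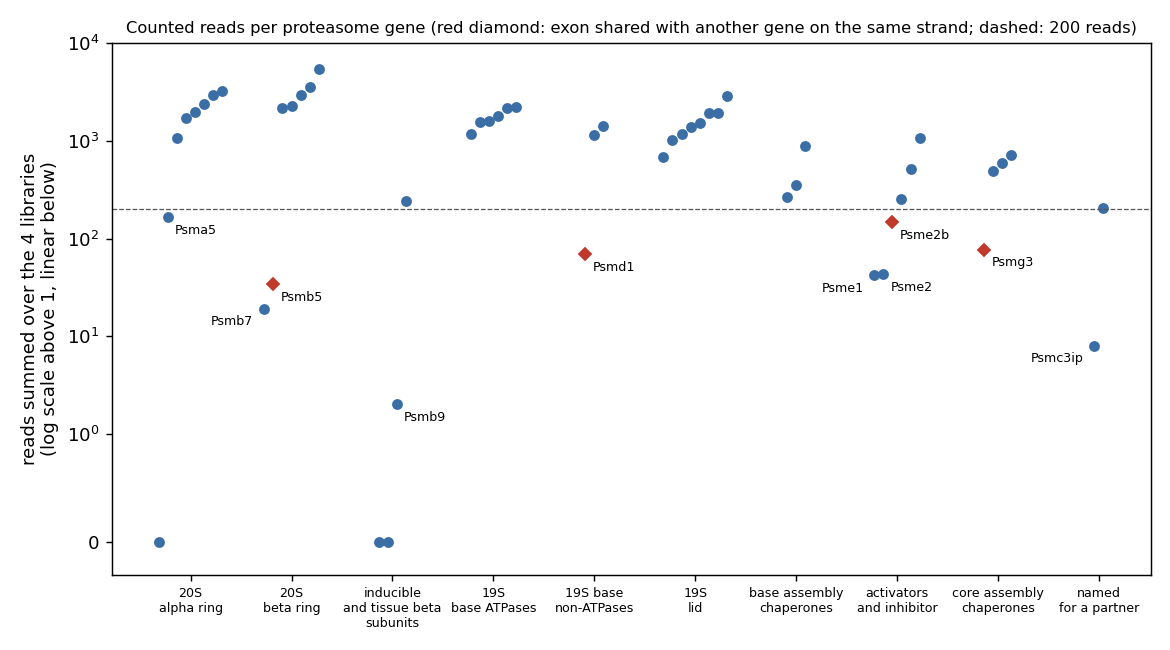
Reads on each of the 51 proteasome genes summed over the 4 libraries, by role, on a log scale above 1 read; red diamonds are genes that share exon sequence with another listed gene on the same strand, and the dashed line is at 200 reads. The low points among high ones of the same ring or cap are *Psma5*, *Psmb5*, *Psmb7* and *Psmd1*, and also *Psma8*, the alpha subunit of the testis, at 0 reads.

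In all, 13 of the 51 genes had fewer than 200 reads in the 4 libraries together, and the features that bear on counting were set beside them. A read whose bases lie on exons of more than 1 gene can be set aside as ambiguous, as 16.0% to 16.5% of all reads were. On the same strand, 4 proteasome genes share exon bases with another listed gene, against 8.73% of all protein-coding genes. These are *Psmb5* with *Mir686*, *Psmd1* with *Gm21972*, *Psme2b* with *9930111J21Rik1* and *Psmg3* with *Gm26938*. All 4 are among the 13, with 34 to 146 reads and a median of 72.5. By comparison, the 25 genes with no exon overlap on either strand had a median of 1536 reads. The other 22 overlap an exon of the opposite strand only, and their median was 615.5. Over all protein-coding genes the order was not the same, with medians of 3 reads for genes with same-strand overlap, 37 for opposite-strand overlap only and 0 for none. The longest such stretch was 2782 bases, between *Psmb7* and *Nek6*, which had 294 reads, and *Psmc3ip*, *Psme1* and *Psme2* share 1109, 1204 and 731 bases with *Mlx*, *Emc9* and *Rnf31*. *Psmd13*, which shares 1227 bases with *Cox8b* on the opposite strand, had 1189 reads. The strand setting of the counting is not given in the sources used here, and the part of these overlaps in the low counts was not tested.

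Reads of low mapping quality, 22.7% to 23.8% of all reads, are also set aside. When the last 850 bases of the canonical transcripts were mapped to GRCm39, 50 of the 51 proteasome genes mapped at the top quality of 60 and *Psme2b* at 55. None was under 10, as 1.94% of protein-coding genes were. *Psma5*, *Psmb5*, *Psmb7* and *Psmd1* were all at 60 in this check of error-free sequence. Of the 5 listed pseudogenes named for a proteasome gene, *Psma5-ps* had 16 and 6 reads in the scrambled libraries and 18 and 9 after knockdown, and the other 4 had 0.

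Around the proteasome, 5 lists named 48 genes, of which 47 were among the gene IDs listed and 41 were tested in the same fit. Of the 41, 2 rose and 2 fell, and the median was 0.01. Over all genes tested, 2.51% were called higher and 3.44% lower. Among 17 partners of the particle, *Zfand2a*, a stress-induced proteasome-binding protein, rose by 0.84 on the log2 scale, from 41 and 42 reads to 65 and 64 (adjusted p = 0.0377, edgeR). *Akirin2*, which carries proteasomes into the nucleus, fell by 0.57, from 180 and 234 reads to 138 and 104 (adjusted p = 0.0399, edgeR). The call on *Akirin2* was lost with the replicate number as a block (adjusted p = 0.0513, edgeR), and both calls were lost with chromosome medians removed (adjusted p = 0.195 and 0.104, edgeR). The partners *Pomp*, *Sem1*, *Uchl5*, *Usp14* and *Adrm1* lay between 0.01 and 0.32 and were not called. *Zfand5* and *Txnl1*, at -0.39 and -0.33, were not called either. Of the 17 partners, 6 lay below 0 and 11 above. Their median was 0.19, and -0.01 with chromosome medians removed. Summed over all partners, normalized counts were 3877 ± 98.7 under the scrambled shRNA and 3912 ± 434 under the knockdown (SD, n = 2 each).

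Of the transcription factors that raise proteasome genes, none passed the test. *Nfe2l1* had 93 and 118 reads under the scrambled shRNA and 110 and 77 under the knockdown, a log2 fold change of 0.03 (SE 0.18), and *Nfe2l2* had 167 and 162 against 182 and 121, a log2 fold change of 0.07 (SE 0.18). Their small Maf partners had fewer reads, and *Mafg* was at -0.43 (SE 0.36, adjusted p = 0.528, edgeR) and *Maff* at -0.36 (SE 0.24, adjusted p = 0.419, edgeR), with no overlap of the groups in either. None of the 6 regulators tested was called, nor any of 5 ubiquitin and E1 genes or 8 genes of the p97 complex, which pulls ubiquitin-marked proteins out of membranes and complexes. At an unadjusted p under 0.05 in edgeR these lists had 0, 1 and 3 genes. The partners of the particle had 5 and the antigen processing partners 3, making 12 of the 41 tested, against 21.8% of all genes tested. Among the antigen processing partners of the inducible subunits, of which 5 were tested, *H2-K1* fell by 1.20, from 74 and 129 reads to 42 and 34 (adjusted p = 0.00329, edgeR), and *Tapbp* rose by 1.04, from 37 and 55 to 100 and 65 (adjusted p = 0.00759, edgeR). Both calls were kept with chromosome medians removed. Under the parametric fits of DESeq2, 0 genes of the 5 lists were called, and 1 by its likelihood ratio test with a local fit. *H2-K1* has relatives of like sequence, and the end of its transcript mapped with a quality of 60. *Tap1* and *Tap2*, the neighbours of *Psmb8* and *Psmb9* on chromosome 17, had 4 and 2 reads in all.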

How the data were processed

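Direct RNA of 4 libraries was analysed. The authors used guppy for basecalling, minimap2 2.17 in splice-aware mode for alignment to GRCm39, and HTSeq 0.9.1 for gene counts, per the study's methods and the submitters' processing notes, and deposited raw counts for 56748 gene IDs. The annotation release and strand setting are not given in the sources used here. Symbols and positions came from GENCODE vM39, which held 56017 of the IDs, and the rows of unassigned reads were left out.

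The counts were tested in edgeR 4.0.16 (R 4.3.3) with TMM factors, filterByExpr, the quasi-likelihood test (~ group, as in the study) and Benjamini-Hochberg adjustment over 8670 genes. Normalized counts are counts divided by the TMM-adjusted library size relative to its mean. Fold changes, standard errors and intervals are those of this fit. With 2 libraries a group, exact permutation reaches no p below 0.333 (two-sided), and no such test was run. Transcript ends were mapped with minimap2 2.31-r1302 and exon overlap was found with bedtools 2.31.1. The code was tested on simulated data.

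The members and lists were chosen with earlier results of these data known. Full statistics are given for called members, for the highest and lowest member of each role with at least 3 tested, and for the 3 with the largest mean normalized count, 19 in all. *Psmb10*, *Psmc3*, *Psmd2* and *Psme3ip1* were given with a p, and further members with values, after these were seen, as were the uncalled partner and regulator genes. The replicate numbers pair the libraries by the batch of the labels; the deviations of the libraries numbered 1 had a correlation of -0.02 between groups over 8670 genes. Alternatives were the replicate block, 4 DESeq2 1.42.0 configurations, RLE and upper quartile factors, other filters, the robust fit, removal of mitochondrial genes and *Rn18s*, removal of chromosome medians, the thresholds of the study, and each library left out. Limits for a count of 0 cover counting error only, while the intervals of fold changes include the spread between libraries. Transcripts, splicing, qPCR and the fly data were not analysed here.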

Additional observations from a re-analysis of the deposited data

How the results depend on the processing

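Of the alternatives with all 4 libraries, 2 proteasome genes were called under the DESeq2 local fits, RLE and upper quartile factors, the other filters, the robust fit, the removal of mitochondrial genes and *Rn18s*, the thresholds of the study and the replicate block. The number was 0 with the DESeq2 Wald and likelihood ratio tests and a parametric fit, and 0 with chromosome medians removed. Under the parametric fits the log2 fold changes stayed at -0.59 for *Psmc6* and -0.56 for *Psmd6*. With chromosome medians removed they were -0.22 and -0.19. Under the replicate block, edgeR gave an adjusted p of 0.0394 for *Psmc6* and 0.0458 for *Psmd6*, and the block changed no call of a proteasome gene. With single libraries left out the number ranged from 0 to 2. The median of the proteasome genes stayed between -0.03 and -0.00 with all libraries and ranged from -0.12 to 0.03 with 1 left out. Where a group is left with 1 library, that library is assumed to vary like the other group.

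Of the other pathway genes, 4 were called, against 2 (local fit) and 0 (parametric fit) by the Wald test of DESeq2, 1 (local) and 0 (parametric) by its likelihood ratio test, 2 with chromosome medians removed and 1 to 3 with a library left out. *Hnrnpl* stayed at -0.78 under the parametric fits of DESeq2 with adjusted p = 0.0567 and 0.0670, and lay between -1.03 and -0.48 with a library left out. Its call was lost without scrambled 2 (-0.48, adjusted p = 0.194) and without knockdown 1 (-0.62, adjusted p = 0.150), both by edgeR.

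Of 304 values of single proteasome genes, 284 kept direction and side of the threshold. Those that turned direction were *Psmb4* (-0.00084 with at least 10 counts in every library, -0.088 with chromosome medians removed, and -0.15 and -0.028 without knockdown 2 and scrambled 2, in a range up to 0.15, with a library left out), *Psma2* (-0.15 with chromosome medians removed, and -0.043 to 0.18 with a library left out), *Psma4* (0.12) and *Psmg1* (-0.12) with chromosome medians removed, and *Psmd4* (0.11 without knockdown 1, of a range of -0.53 to 0.11). With a library left out, ranges on one side of 0 were also wide for *Psme2b* (-0.73 to -0.077), *Psmf1* (0.063 to 0.36), *Psmg1* (0.031 to 0.31) and *Psmb6* (-0.21 to -0.020). The cause was not tested. Depth limits *Psmb5* and *Psmb7*, which had too few reads to test, and *Psmd1*, *Psme1*, *Psme2* and *Psmg3*, whose standard errors ran from 0.36 to 0.52 at 42 to 76 reads.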

Other observations

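Another pair of complexes was read for comparison. The COP9 signalosome is built much like the lid. Of its 9 genes tested, *Cops6* rose by 0.50, from 336 and 482 reads to 579 and 424 (adjusted p = 0.0444, edgeR), and *Cops7b* rose by 0.86, from 31 and 70 reads to 83 and 74 (adjusted p = 0.0407, edgeR). The median of the 9 was 0.22, and 0.066 with chromosome medians removed, beside -0.11 and -0.046 for the lid. The difference was not tested. With these medians removed neither gene was called (adjusted p = 0.412 and 0.168, edgeR), and with the replicate block *Cops6* had an adjusted p of 0.0798 (edgeR). The CCT chaperonin, a folding machine of 8 subunits, had no gene called among 8 tested and a median of 0.04, or -0.12 with chromosome medians removed. Its gene *Tcp1* had 43 and 35 reads in the scrambled libraries and 36 and 27 after knockdown. Each other chaperonin gene had at least 741 reads in every library. A gene counted far below the rest of its complex was therefore not particular to the proteasome. At an unadjusted p under 0.05 in edgeR the chaperonin also had 0, and the COP9 signalosome had 3. Of all genes tested, 21.8% passed that limit and 5.95% were called.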
